A study of Mus musculus with 60 samples.

Results

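The differentiation change of each gene was compared between B9 cells, an immortalized mouse brown preadipocyte line, and pBAT cells, primary brown preadipocytes isolated from newborn mouse pups. The comparison uses 12 of the 60 RNA sequencing libraries of the study, with 3 libraries in each of B9 day 0, B9 day 6, pBAT day 0 and pBAT day 6. Within each cell type the day 0 mean of a gene was subtracted from its day 6 mean, and the pBAT change was then subtracted from the B9 change. The genes tested were the 13324 of the 18058 genes listed for both cell types whose mean reached 4 on the deposited log2 scale in at least 1 of the 4 groups. All 4 groups are labelled wild type and as given adipogenic differentiation. Before differentiation, B9 cells were kept in medium with 10% serum and pBAT cells in medium with 20% serum, and both were differentiated in medium with 10% serum. The serum step in pBAT and the difference in cell type cannot be told apart. B9 is a single line, and the labels do not say whether the libraries of a group came from separate cultures, so the p-values measure only the spread between these libraries, which may be technical.

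Preadipocytes become adipocytes by leaving the cell cycle and switching on the transcription factors PPARγ and C/EBPα, which drive the genes of lipid storage. Brown adipocytes also build many mitochondria and UCP1, a protein of the inner mitochondrial membrane that turns respiration into heat. Heme is made by a chain of enzymes that starts and ends in the mitochondrion, and it is the prosthetic group of the respiratory cytochromes. Immortalized brown lines are used in place of primary cells because they can be expanded.

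The deposited values are on a log2 scale that the authors normalized separately for each cell type, so only changes are compared here and levels of B9 and pBAT stand side by side without comparison. Low values vary little on this scale, which understates the change of genes that are low at day 0. Read depth is unknown from these values. Libraries of the same group correlated at 0.993 to 0.997 across genes. In the file headers the B9 columns of days 2, 4 and 6 carry a letter that the day 0 columns lack, and the labels do not explain it. A difference in how the B9 day 0 libraries were made and the change by day 6 therefore cannot be told apart, and results that turn when day 2 is the baseline in place of day 0 (written as against day 2) are named beside their values.

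Most of the differentiation change was shared, and its size differed for many genes. In B9, 5186 of the 13324 genes (38.9%) rose and 4941 (37.1%) fell by day 6, and in pBAT 5024 (37.7%) rose and 5168 (38.8%) fell, each at an adjusted p under 0.05 in limma. These calls covered 76% of the genes tested in B9 and 76.5% in pBAT. The changes of the 2 cell types correlated across genes at a Pearson r of 0.757 and a Spearman rho of 0.727, where genes are not independent replicates. The difference between the changes was called for 7772 genes, or 58.3% of those tested. The B9 change lay above the pBAT change for 3796 genes (28.5%) and below it for 3976 (29.8%). The median difference over all genes tested was -0.01. A called difference of at least 1 on the log2 scale was found for 2694 genes (20.2%), of which 1615 (12.1%) lay above in B9 and 1079 (8.1%) below. The shares of 28.5% above and 29.8% below are the background for the list counts that follow. Against day 2 the difference was called above for 3806 and below for 3226 of the same 13324 genes.

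**Figure D1:**
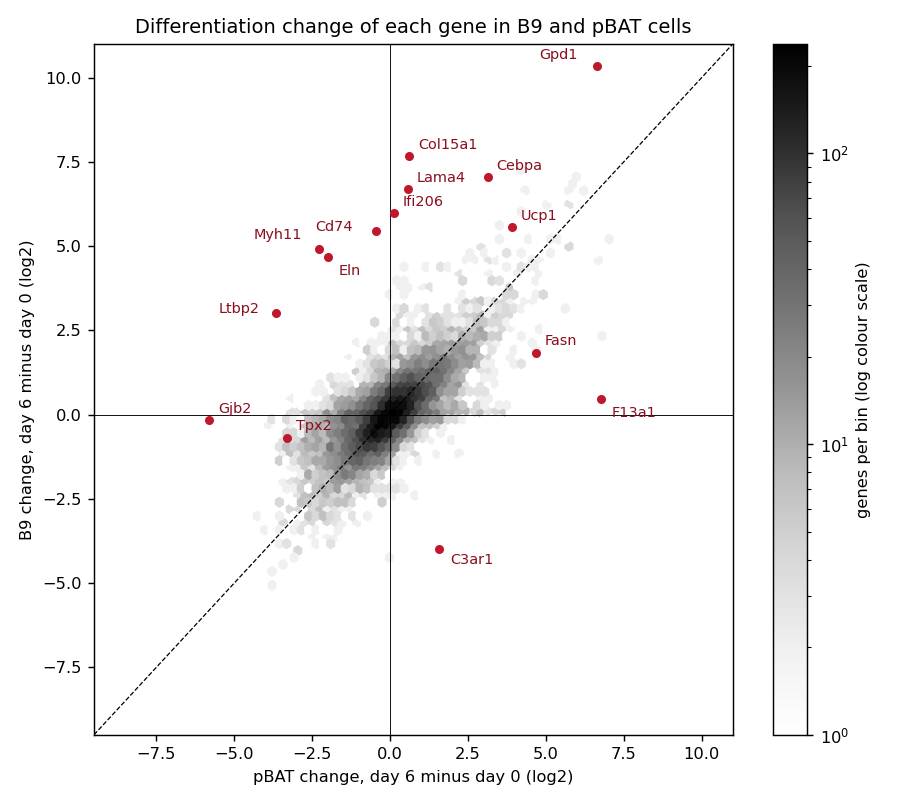
Change from day 0 to day 6 (log2) of the 13324 genes tested, pBAT on the horizontal and B9 on the vertical axis, with the shade giving the number of genes per bin on a log scale. The dashed line marks equal change. Gpd1 lies above the line at 10.34 in B9 and 6.63 in pBAT, Fasn below it at 1.84 and 4.68, and Myh11 and Eln lie in the region where B9 rose and pBAT fell.

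Of the genes that rose in both cell types, 1686 had no called difference, 746 rose more in B9 and 1270 rose more in pBAT. Of the genes that fell in both, 1675 had no called difference, 906 fell more in B9 and 1046 fell more in pBAT. Called opposite changes with a called difference were found for 469 genes that rose in B9 and fell in pBAT (3.52%) and for 374 genes that fell in B9 and rose in pBAT (2.81%).

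Both cell types turned on the general adipocyte genes. All 26 rose in B9 and all 26 in pBAT, with a median change of 7.05 in B9 and 6.03 in pBAT, and the difference was called above for 12 and below for 11 of them, against 28.5% and 29.8% of all genes. The median difference was 0.25. Gpd1, glycerol-3-phosphate dehydrogenase, read 5.39, 4.78 and 5.45 in the B9 day 0 libraries and 15.57, 15.45 and 15.63 at day 6. In pBAT it read 8.24, 8.29 and 8.33 and then 15.08, 14.58 and 15.09. The groups did not overlap in either cell type, and the difference of the changes was 3.71 ± 0.18 (combined SE; limma adjusted p = 1.56e-14). Cfd, the secreted protease adipsin, rose by 9.34 in B9 and by 4.91 in pBAT, and G0s2, an inhibitor of the lipase ATGL, by 9.14 and 5.65. Pnpla2, which encodes that lipase, went the other way. It read 9.52, 9.82 and 9.75 at day 0 and 14.51, 14.55 and 14.61 at day 6 in B9, and 9.83, 9.88 and 9.82 and then 16.97, 16.94 and 16.83 in pBAT. Its rise of 4.86 in B9 was below that of 7.07 in pBAT, a difference of -2.21 ± 0.10 (limma adjusted p = 9.45e-17). So the inhibitor rose more in B9 and the lipase it inhibits rose more in pBAT.

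Among 25 adipogenic transcription factors, the difference was called above for 7 and below for 9, with a median of -0.08, where 28.5% and 29.8% of all genes were called. Cebpa, which encodes C/EBPα, read 6.10, 6.25 and 6.60 at day 0 and 13.36, 13.37 and 13.40 at day 6 in B9. In pBAT, on a scale normalized separately, it read 11.26, 11.30 and 11.31 at day 0 and 14.45, 14.27 and 14.56 at day 6. The change was 7.06 in B9 and 3.13 in pBAT, a difference of 3.92 ± 0.12 (limma adjusted p = 1.49e-18). Zfp423, a zinc finger factor of preadipocyte commitment, rose by 3.82 in B9 and 0.43 in pBAT. With day 2 as the baseline the difference was no longer called for Cebpa (0.23) or Zfp423 (0.54). Cebpd, an early factor of adipogenesis, fell by 0.37 in B9 and rose by 0.61 in pBAT. Klf9 rose in both, by 2.08 and 2.99.

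Of 28 tested members of the thermogenic and brown adipocyte list, 27 rose in B9, and 22 rose and 4 fell in pBAT. The difference was called above for 9 and below for 11, against 28.5% and 29.8% of all genes, so the shares lie near the background. Its median was -0.19 against day 0 and 0.36 against day 2. Ucp1 read 2.21, 2.19 and 2.20 at day 0 and 7.65, 7.85 and 7.78 at day 6 in B9, and 2.50, 2.49 and 2.51 and then 6.45, 5.87 and 6.91 in pBAT. The day 0 values sit in the low range where the scale varies little, and the pBAT day 6 libraries spread over about 1 log2 unit. Ucp1 rose by 5.56 in B9 and 3.91 in pBAT, a difference of 1.65 ± 0.34 (limma adjusted p = 0.000168). At day 4 the order was the opposite, with changes of 0.66 in B9 and 1.83 in pBAT and a difference of -1.17 ± 0.34 (limma adjusted p = 0.00532). Cox8b, a cytochrome oxidase subunit of brown fat and muscle, rose by 3.75 in B9 and 6.85 in pBAT. Fgf21, a hormone that brown fat can secrete, rose by 3.57 in B9, and its change in pBAT was -0.10 (limma adjusted p = 0.61). Ckb, the brain-type creatine kinase, rose by 2.85 in B9 and fell by 0.55 in pBAT, a difference that was not called against day 2 (0.45). Fabp3, a fatty acid binding protein of muscle and brown fat, rose by 0.49 in B9 and fell by 3.29 in pBAT.

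Of the 8 heme synthesis genes, 7 rose and 1 fell in each cell type, and Cpox was the one that fell in both. The median change was 0.68 in B9 and 0.99 in pBAT. The difference was called above for 1 and below for 5, against 28.5% and 29.8% of all genes, with a median of -0.39. Against day 2 it was called above for 2 and below for 3, with a median of 0.02. Alas1, the rate-limiting enzyme of the pathway outside red cells, read 10.19, 10.36 and 10.20 at day 0 and 12.85, 12.77 and 12.98 at day 6 in B9. In pBAT it read 10.00, 9.83 and 10.14 and then 12.89, 12.41 and 12.71. Alas1 rose by 2.61 in B9 and 2.68 in pBAT, and the difference of -0.07 ± 0.12 had a 95% interval from -0.31 to 0.18 (limma adjusted p = 0.647). Its sign turned under 4 of the alternatives, without a call in any. At day 4 the difference was called, with changes of 2.19 in B9 and 3.19 in pBAT and a difference of -0.99 ± 0.12 (limma adjusted p = 1.95e-07). Alad, the next enzyme, rose by 1.18 and 1.35, with a 95% interval of the difference from -0.38 to 0.04 (limma adjusted p = 0.148).

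The later heme enzymes differed. Ppox, protoporphyrinogen oxidase, rose by 1.41 in B9 and 0.60 in pBAT and was the only 1 of the 8 with a called difference above, at 0.81 ± 0.14 (limma adjusted p = 2.57e-05). Cpox, coproporphyrinogen oxidase, read 10.63, 10.52 and 10.49 and then 9.43, 9.64 and 9.52 in B9, and 9.55, 9.43 and 9.50 and then 9.19, 9.41 and 9.25 in pBAT. It fell by 1.02 in B9 and by 0.21 in pBAT, a difference of -0.81 ± 0.11 (limma adjusted p = 2.49e-07). Fech, which inserts the iron and completes heme, rose by 0.34 in B9 and 0.87 in pBAT, and Urod rose by 0.89 and 1.55. Uros rose by 0.47 and 1.11, also with a called difference below. The call of Uros was lost without pBAT day 0 replicate 3 (-0.48) or pBAT day 6 replicate 4 (-0.46). With day 2 as the baseline the difference of Cpox became 1.03 and that of Alad 0.06.

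**Figure D2:**
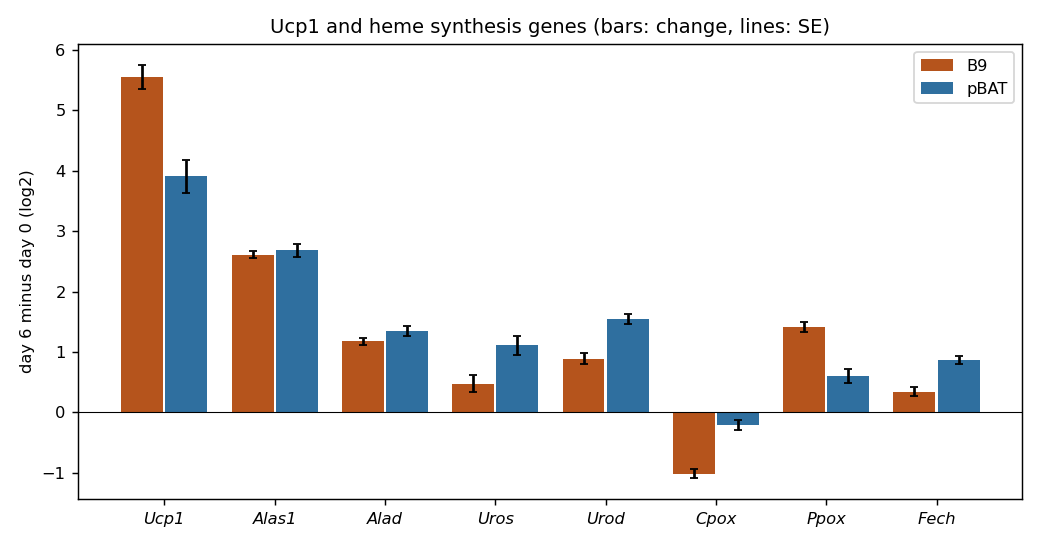
Change from day 0 to day 6 (log2) of Ucp1 and heme synthesis genes in pathway order; bars show the change in B9 and pBAT, 3 libraries per group, and lines the SE from limma. The Alas1 bars stand at 2.61 and 2.68, Ucp1 rises more in B9, and Cpox is the one gene with bars under 0 in both cell types.

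Iron handling genes supply the metal of heme. Of 21 tested, 14 rose and 3 fell in B9, and 18 rose and 1 fell in pBAT. The difference was called above for 2 and below for 13, against 28.5% and 29.8% of all genes, with a median of -0.49. Against day 2 this turned, to 9 above and 4 below with a median of 0.16. Tfrc, the transferrin receptor that brings iron into the cell, read 11.98, 11.72 and 11.83 at day 0 and 11.28, 11.32 and 11.05 at day 6 in B9. In pBAT it read 8.79, 8.92 and 8.85 and then 10.43, 10.39 and 10.72. Tfrc thus fell by 0.63 in B9 and rose by 1.66 in pBAT, a difference of -2.29 ± 0.12 (limma adjusted p = 8.33e-15). Its difference was 0.53 with day 2 as the baseline. Slc25a28, the mitochondrial iron importer mitoferrin 2, rose by 0.84 in B9 and 1.84 in pBAT. Glrx5, a glutaredoxin of iron-sulfur cluster assembly, rose by 1.02 in pBAT and its change in B9 was 0.06 (limma adjusted p = 0.45), a difference that was not called against day 2 (-0.14).

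Genes that break down branched-chain amino acids (leucine, isoleucine and valine) rose in both cell types and rose more in pBAT for most. Of 28, 27 rose and 1 fell in B9 and likewise in pBAT. The difference was called above for 1 and below for 17, against 28.5% and 29.8% of all genes. Its median was -0.46, against -0.01 over all genes tested. Against day 2 it was called above for 6 and below for 11. Hibch, an enzyme of valine breakdown, read 7.60, 7.60 and 7.55 and then 10.04, 10.07 and 10.09 in B9, and 7.55, 7.41 and 7.33 and then 11.40, 11.40 and 11.38 in pBAT. Its difference was -1.48 ± 0.11 (limma adjusted p = 7.06e-12). Hibadh, the next enzyme of that branch, rose by 1.72 and 2.67. Bckdha, a subunit of the dehydrogenase that commits all 3 amino acids to oxidation, rose by 3.67 and 4.38. Slc25a44, a mitochondrial carrier of these amino acids, rose by 1.31 and 1.88.

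Most nuclear genes of mitochondrial respiration rose in both cell types. All 22 TCA cycle genes rose in both, and all 22 had a called difference below, with a median change of 1.83 in B9 and 2.44 in pBAT, and 14 had one against day 2. Cs, citrate synthase, read 13.37, 13.32 and 13.36 and then 15.13, 15.19 and 15.22 in B9, and 12.62, 12.48 and 12.56 and then 15.24, 15.15 and 15.21 in pBAT. Its difference was -0.82 ± 0.07 (limma adjusted p = 1.42e-10). Ogdh rose by 1.18 and 2.28 and Idh3a by 2.34 and 3.30. All 36 nuclear complex I genes rose in both cell types, with 2 differences called above and 20 below and a median of -0.25. Of all genes, 28.5% were called above and 29.8% below. Against day 2 the complex I genes had 2 differences called above and 12 below, with a median of -0.10. Of 35 genes of complexes III, IV and V, 33 rose in B9, and 34 rose and 1 fell in pBAT, with 5 differences called above and 19 below. Against day 2 these were 10 above and 8 below, shares near those of all genes tested (3806 and 3226 of 13324). Of 35 mitochondrial ribosomal protein genes, 31 rose in B9 and 34 in pBAT, with median changes of 0.52 and 1.21, and the difference was called above for none and below for 28. Against day 2 it was called above for 6 and below for 9.

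Of the genes carried by the mitochondrial genome, all 13 rose in pBAT, with a median of 1.55, whereas in B9 4 rose and 2 fell, with a median of 0.01. The difference was called below for 12 of 13. The transcript of mt-Cytb, the heme-bearing cytochrome b of complex III, read 16.63, 16.67 and 16.59 at day 0 and 16.12, 16.45 and 16.52 at day 6 in B9. In pBAT it read 16.32, 16.18 and 16.40 and then 18.19, 18.22 and 18.24. The change was -0.27 in B9 and 1.92 in pBAT, a difference of -2.19 ± 0.14 (limma adjusted p = 3.93e-13). For mt-Nd2 the B9 change was -0.19 (limma adjusted p = 0.15) and the pBAT change 1.94. At day 4 the B9 median of the 13 genes stood at 1.31 and the pBAT median at 1.94. The summed share of the 13 genes in a library, taken from 2 raised to the deposited values, was 3.77 to 4.04% at day 0 and 4.66 to 6.30% at day 6 in B9, and 3.26 to 3.87% and 9.27 to 10.3% in pBAT. These transcripts can share reads with nuclear copies of mitochondrial DNA.

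Of 14 fatty acid synthesis genes, 12 rose and 1 fell in B9 and all 14 rose in pBAT, with medians of 2.12 and 3.61, and the difference was called below for 13. Against day 2 it was called above for 3 and below for 10. Fasn, fatty acid synthase, read 13.70, 13.99 and 13.80 and then 15.73, 15.69 and 15.61 in B9, and 13.22, 13.20 and 13.29 and then 18.06, 17.86 and 17.82 in pBAT. Its difference was -2.83 ± 0.11 (limma adjusted p = 8.53e-18). Me1, malic enzyme, which makes NADPH for this pathway, rose by 1.58 and 3.88. Elovl6, which lengthens its product palmitate, fell by 1.75 in B9 and rose by 0.60 in pBAT.

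Of 18 glycolytic genes, 14 rose in B9, and 17 rose and 1 fell in pBAT. The difference was called above for 2 and below for 16, where 28.5% and 29.8% of all genes were called. Against day 2 it was called above for 5 and below for 8. Pfkfb3, which makes the activator of phosphofructokinase, rose by 2.53 in B9 and 4.83 in pBAT, and Gpi1 by 2.08 and 3.47. Pgam1 rose by 0.65 and 2.16 and Tpi1 by 0.89 and 2.22; with day 2 as the baseline their differences were 0.14 and 0.56. Cpt1b, the muscle-type gate of fatty acid entry into mitochondria, rose by 2.00 in B9 and 5.40 in pBAT.

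Of 24 sterol synthesis genes, 11 rose and 9 fell in B9, and 8 rose and 15 fell in pBAT. The difference was called above for 17 and below for 2, against 28.5% and 29.8% of all genes, with a median of 0.87. Fdps, farnesyl diphosphate synthase, read 11.69, 11.67 and 11.66 and then 12.20, 12.20 and 12.18 in B9, and 11.40, 11.39 and 11.40 and then 10.35, 10.20 and 10.29 in pBAT. It rose by 0.52 in B9 and fell by 1.12 in pBAT, a difference of 1.64 ± 0.07 (limma adjusted p = 1.24e-16). Insig1, a brake on the pathway, rose by 2.20 and 0.47. Sqle fell by 1.33 in pBAT, and its change in B9 was -0.04 (limma adjusted p = 0.45). Hmgcs1 rose by 0.59 in B9 and fell by 0.50 in pBAT.

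**Figure D3:**
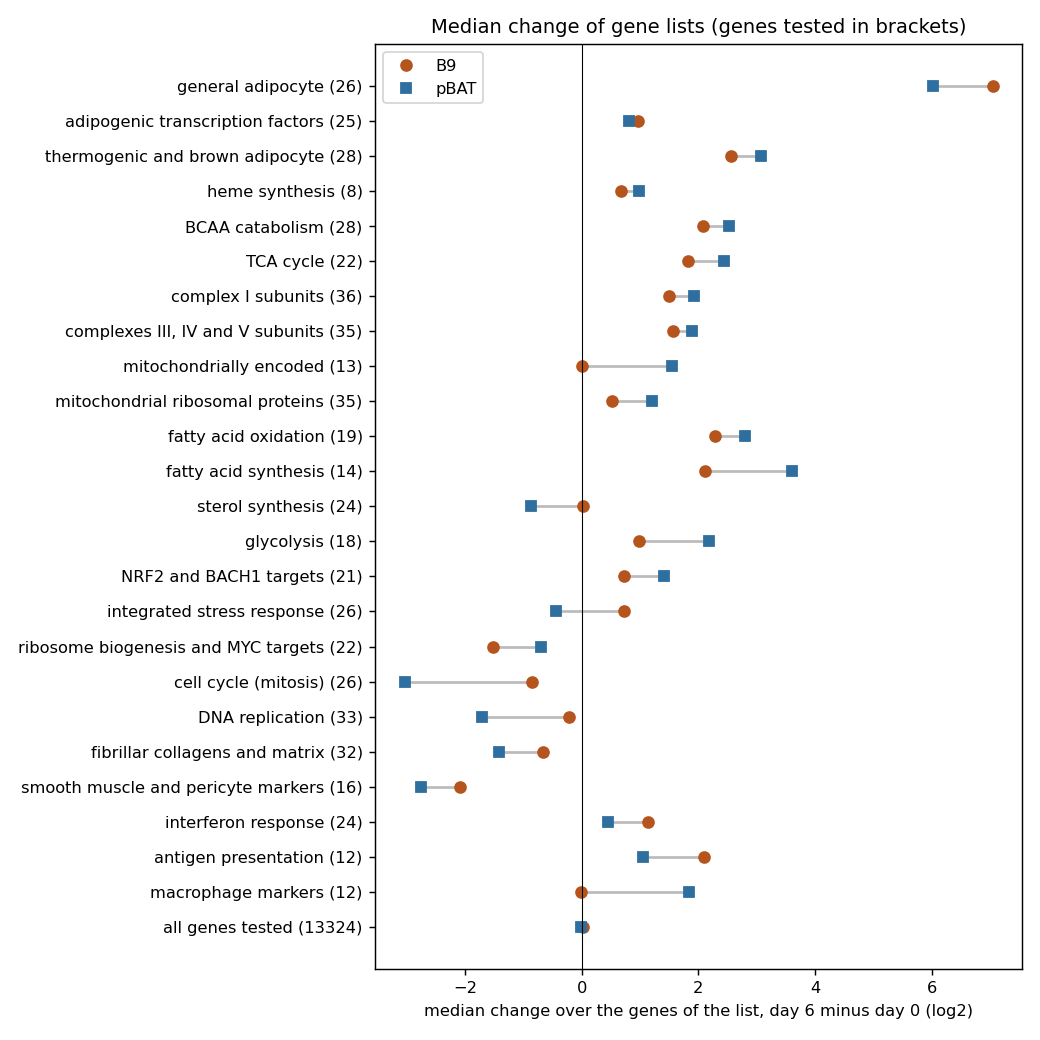
Median change from day 0 to day 6 (log2) over the tested genes of each list, B9 as circles and pBAT as squares, with the number of genes in brackets. Among the lists plotted, the widest gaps are at the cell cycle (-0.85 and -3.03), the macrophage markers, the mitochondrially encoded genes (0.01 and 1.55), fatty acid synthesis (2.12 and 3.61) and DNA replication (-0.21 and -1.71). Most of the 12 macrophage markers passed the filter through pBAT alone and are low in B9, so the filter shapes their gap. The medians of all genes tested lie close to 0 in both cell types.

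Cell cycle genes fell in pBAT far more than in B9. All 26 mitosis genes fell in pBAT and 25 fell in B9, with a median of -3.03 in pBAT and -0.85 in B9, and the difference was called above for all 26, where 28.5% of all genes were. Tpx2, a spindle assembly factor, read 12.50, 12.43 and 12.48 at day 0 and 11.75, 11.83 and 11.78 at day 6 in B9. In pBAT it read 11.41, 11.49 and 11.38 and then 8.17, 8.21 and 7.99. The groups stood apart in both cell types, and the difference was 2.62 ± 0.09 (limma adjusted p = 1.16e-17). Ccnb1 and Ccna2, the cyclins of mitosis and S phase, fell by 0.84 and 1.19 in B9 and by 3.22 and 3.29 in pBAT. Hmmr, a spindle-associated protein, fell by 0.87 and 3.02.

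Of 33 DNA replication genes, 18 fell and 6 rose in B9, and 32 fell in pBAT. The difference was called above for 30 and below for none, with a median of 1.43. Mcm2, a subunit of the replicative helicase, read 12.60, 12.71 and 12.67 and then 12.39, 12.41 and 12.39 in B9, and 10.47, 10.39 and 10.37 and then 8.04, 8.06 and 8.02 in pBAT. It fell by 0.26 and 2.37, a difference of 2.11 ± 0.07 (limma adjusted p = 4.22e-17). Rrm2, the regulated subunit of ribonucleotide reductase, fell by 0.70 and 3.00, and Rrm1 by 0.38 and 2.18. In a bulk culture, fewer dividing cells and less of these transcripts per cell cannot be told apart.

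Of 15 cell cycle inhibitors and pocket proteins, 11 rose and 1 fell in B9, and 9 rose and 3 fell in pBAT. The difference was called above for 8 and below for 4, where 28.5% and 29.8% of all genes were called. Against day 2 it was called above for 7 and below for 6. Cdkn1a, which encodes the CDK inhibitor p21, rose by 1.32 in B9 and 0.35 in pBAT. Cdkn2c, which encodes p18, rose by 1.51 and 2.86, and its difference of -1.36 became 0.04 with day 2 as the baseline. Rbl1, which encodes the pocket protein p107, rose by 0.42 in B9 and fell by 1.08 in pBAT.

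Promoters of the cell cycle genes are shown because these members moved together. They were taken from RefSeq on GRCm38.p6 and run from 250 bases before to 50 bases after the gene start. TTTGAA, the core of the CHR element through which repressor and activator complexes time late cell cycle genes, was searched on both strands. It was found in 15 of the 21 mitosis genes with a promoter in the table (71.4%), in 3 of 27 DNA replication genes (11.1%), in 14.3% of the genes tested and in 20.2% of all genes in the table. The E2F motifs TTTCGCGC and TTTGGCGC, searched on both strands, were found in 1 of 21 mitosis genes (4.76%), in 10 of 27 DNA replication genes (37.0%), in 1.77% of the genes tested and in 0.929% of all genes in the table. The 2 E2F motifs can overlap each other on opposite strands. A match describes the letters and not a bound site. In the promoters of Hmmr (chr11:40733388-40733687, minus strand), Kif11 (chr19:37376132-37376431, plus strand) and Mki67 (chr7:135716330-135716629, minus strand) the capitals mark TTTGAA or its reverse complement. In those of the helicase genes Mcm6 (chr1:128359656-128359955, minus strand) and Mcm5 (chr8:75109259-75109558, plus strand) they mark the E2F motifs. These 5 are the members with the smallest adjusted p of each list that hold the motif, each read in the direction of transcription. Promoters on a single chromosome were left out of this choice.
Hmmr: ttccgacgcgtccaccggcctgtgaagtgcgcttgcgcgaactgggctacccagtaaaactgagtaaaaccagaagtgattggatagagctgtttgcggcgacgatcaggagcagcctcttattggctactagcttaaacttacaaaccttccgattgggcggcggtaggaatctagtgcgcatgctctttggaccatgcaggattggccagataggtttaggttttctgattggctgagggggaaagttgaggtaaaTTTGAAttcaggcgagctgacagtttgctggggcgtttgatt
Kif11: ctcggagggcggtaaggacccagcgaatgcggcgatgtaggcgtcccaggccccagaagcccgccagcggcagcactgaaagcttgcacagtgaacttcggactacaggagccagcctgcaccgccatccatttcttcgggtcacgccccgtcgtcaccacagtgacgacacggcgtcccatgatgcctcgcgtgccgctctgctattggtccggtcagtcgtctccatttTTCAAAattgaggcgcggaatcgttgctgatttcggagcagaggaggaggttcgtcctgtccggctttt
Mki67: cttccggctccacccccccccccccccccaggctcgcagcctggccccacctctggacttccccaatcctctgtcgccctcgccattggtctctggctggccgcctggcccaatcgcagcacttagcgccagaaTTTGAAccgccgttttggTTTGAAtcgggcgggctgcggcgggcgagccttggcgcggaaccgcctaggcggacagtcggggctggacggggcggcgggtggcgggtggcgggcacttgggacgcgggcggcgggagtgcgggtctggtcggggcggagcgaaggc
Mcm6: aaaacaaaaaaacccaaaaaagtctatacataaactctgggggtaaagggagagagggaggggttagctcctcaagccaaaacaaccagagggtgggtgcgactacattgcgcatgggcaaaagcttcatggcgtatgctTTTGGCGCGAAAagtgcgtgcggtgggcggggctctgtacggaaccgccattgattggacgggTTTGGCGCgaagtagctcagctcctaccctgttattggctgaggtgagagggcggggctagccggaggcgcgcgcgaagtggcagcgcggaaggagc
Mcm5: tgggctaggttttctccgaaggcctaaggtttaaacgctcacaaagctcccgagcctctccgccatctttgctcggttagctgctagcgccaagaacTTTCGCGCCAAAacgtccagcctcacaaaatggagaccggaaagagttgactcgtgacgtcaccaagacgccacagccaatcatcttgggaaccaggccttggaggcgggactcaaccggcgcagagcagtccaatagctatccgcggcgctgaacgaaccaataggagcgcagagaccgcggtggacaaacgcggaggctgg

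The order of events differed as well. At day 2 a called difference was found for 50.5% of genes (21.5% above and 29% below), and at day 4 for 51% (23.4% above and 27.6% below). At day 2 the median difference of the mitosis genes was -0.50 and that of the DNA replication genes -0.64, so that pBAT stood higher relative to its day 0 than B9. By day 4 these were 1.27 and 1.13. In pBAT the DNA replication median was 0.65 at day 2 and -1.11 at day 4. In B9 it lay between -0.21 and 0.10 at days 2, 4 and 6. The fatty acid synthesis difference was widest at day 4, at -2.98.

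**Figure D4:**
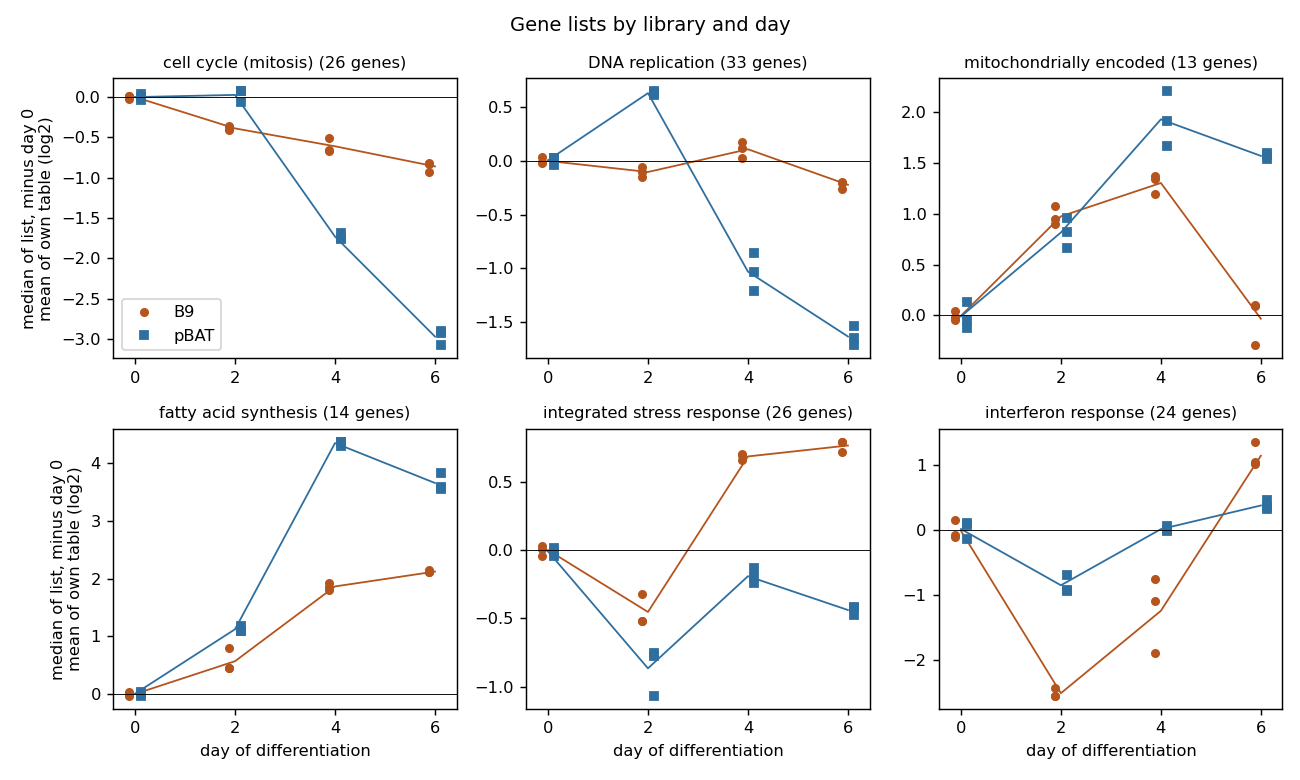
Median of each list in every library, minus the mean of day 0 of the same table (log2), against the day of differentiation; points are libraries, 3 per group, and lines join group means. The pBAT points of DNA replication rise to between 0.61 and 0.65 at day 2 and drop to between -1.72 and -1.53 at day 6, and the B9 points of the interferon list dip to between -2.56 and -2.43 at day 2.

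Of 22 ribosome biogenesis and MYC target genes, 22 fell in B9 and 19 in pBAT, with medians of -1.52 and -0.69, and the difference was called below for 19. Rrp12, a factor of ribosomal RNA processing, read 10.17, 10.19 and 10.13 and then 8.01, 7.85 and 8.10 in B9, and 8.82, 8.81 and 8.72 and then 8.71, 8.51 and 8.95 in pBAT. Its difference was -2.11 ± 0.12 (limma adjusted p = 1.11e-13). Srm, spermidine synthase, fell by 2.11 and 0.78. Against day 2 the difference was called above for 7 and below for 3 of the 22. Of 40 cytosolic ribosomal protein genes, 39 fell in each cell type, with medians of -0.69 in B9 and -0.84 in pBAT. The difference was called above for 12 and below for 1, where 28.5% and 29.8% of all genes were called.

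The integrated stress response genes, which ATF4 drives when amino acids or protein folding fail, moved in opposite directions on balance against day 0, but not against day 2. Of 26, 20 rose and 2 fell in B9, and 9 rose and 14 fell in pBAT, with medians of 0.73 and -0.45. The difference was called above for 23 and below for 1. Aldh1l2, a mitochondrial enzyme of folate metabolism, read 11.93, 11.96 and 12.03 and then 13.46, 13.67 and 13.61 in B9, and 11.86, 11.77 and 11.81 and then 10.17, 10.43 and 9.93 in pBAT. It rose by 1.61 in B9 and fell by 1.63 in pBAT, a difference of 3.24 ± 0.12 (limma adjusted p = 9.40e-17). Pck2, the mitochondrial form of phosphoenolpyruvate carboxykinase, rose by 1.08 and fell by 1.03. Mthfd2, which acts beside Aldh1l2, rose by 0.70 and fell by 1.01. Fgf21, also a target of ATF4, rose in B9 as given above. Against day 2 the median change was a rise in both cell types, of 0.92 in B9 and 0.43 in pBAT. The difference was then called above for 14 and below for 4 of the 26.

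Of 32 collagen and matrix genes, 9 rose and 19 fell in B9, and 7 rose and 23 fell in pBAT, with the difference called above for 16 and below for 9 and a median of 0.22, where 28.5% and 29.8% of all genes were called. Single members differed by far more than that median. Eln, elastin, read 4.96, 4.83 and 4.89 at day 0 and 9.58, 9.66 and 9.47 at day 6 in B9. In pBAT it read 13.26, 13.21 and 13.33 and then 11.23, 11.07 and 11.51. It rose by 4.68 in B9 and fell by 2.00 in pBAT, a difference of 6.67 ± 0.13 (limma adjusted p = 4.61e-24). Col15a1, a basement membrane collagen, rose by 7.67 in B9 and 0.62 in pBAT, and Lama4, a laminin chain around fat cells and vessels, by 6.70 and 0.57. Col6a1 and Col6a2, chains of collagen VI, rose by 2.38 and 2.87 in B9 and by 0.18 and 0.24 in pBAT.

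The smooth muscle and pericyte markers fell on the whole in both cell types. Of 16, 4 rose and 11 fell in B9, and 1 rose and 15 fell in pBAT. The difference was called above for 8 and below for 4, against 28.5% and 29.8% of all genes, with a median of 0.81. Against day 2 this turned, to 3 above and 9 below with a median of -0.49. Myh11, the smooth muscle myosin heavy chain, read 3.76, 3.71 and 3.71 and then 8.71, 8.55 and 8.65 in B9, and 10.79, 10.89 and 10.71 and then 8.49, 8.45 and 8.62 in pBAT. Its rise of 4.91 and fall of 2.28 gave the highest difference among all genes tested, 7.19 ± 0.20 (limma adjusted p = 3.16e-19). Tagln, an actin-binding protein of contractile cells, fell in both, by 6.01 in B9 and 4.18 in pBAT. Rgs5, a pericyte marker, fell by 2.75 in pBAT and read 2.24 to 2.61 in the B9 libraries of both days. Mylk, the kinase that activates smooth muscle myosin, rose by 3.76 and fell by 1.76.

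Other genes were named by the size of the difference or of opposite changes. They had a called difference and reached a mean of 6 in both tables, and predicted and clone names were left out. Ltbp2, a microfibril protein, read 6.90, 7.20 and 7.60 and then 10.40, 10.16 and 10.23 in B9, and 14.24, 14.30 and 14.33 and then 10.82, 10.52 and 10.60 in pBAT. Its difference was 6.68 ± 0.20 (limma adjusted p = 7.29e-19). Aspn and Prelp, small proteoglycans of the matrix, rose by 3.73 and 4.61 in B9 and fell by 1.46 and 0.39 in pBAT. Igfbp4, a binding protein of insulin-like growth factors, rose by 5.87 and 0.80, and Pappa, the protease that cleaves it, rose by 1.99 in B9 and fell by 2.24 in pBAT. Alpl, tissue-nonspecific alkaline phosphatase, rose by 4.60 and fell by 0.83. Neurl1b, a ubiquitin ligase of Notch signalling, rose by 3.01 and fell by 2.10, and St6galnac2, a sialyltransferase, rose by 3.00 and fell by 1.74. The difference of Aspn was -0.22 with day 2 as the baseline.

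**Figure D5:**
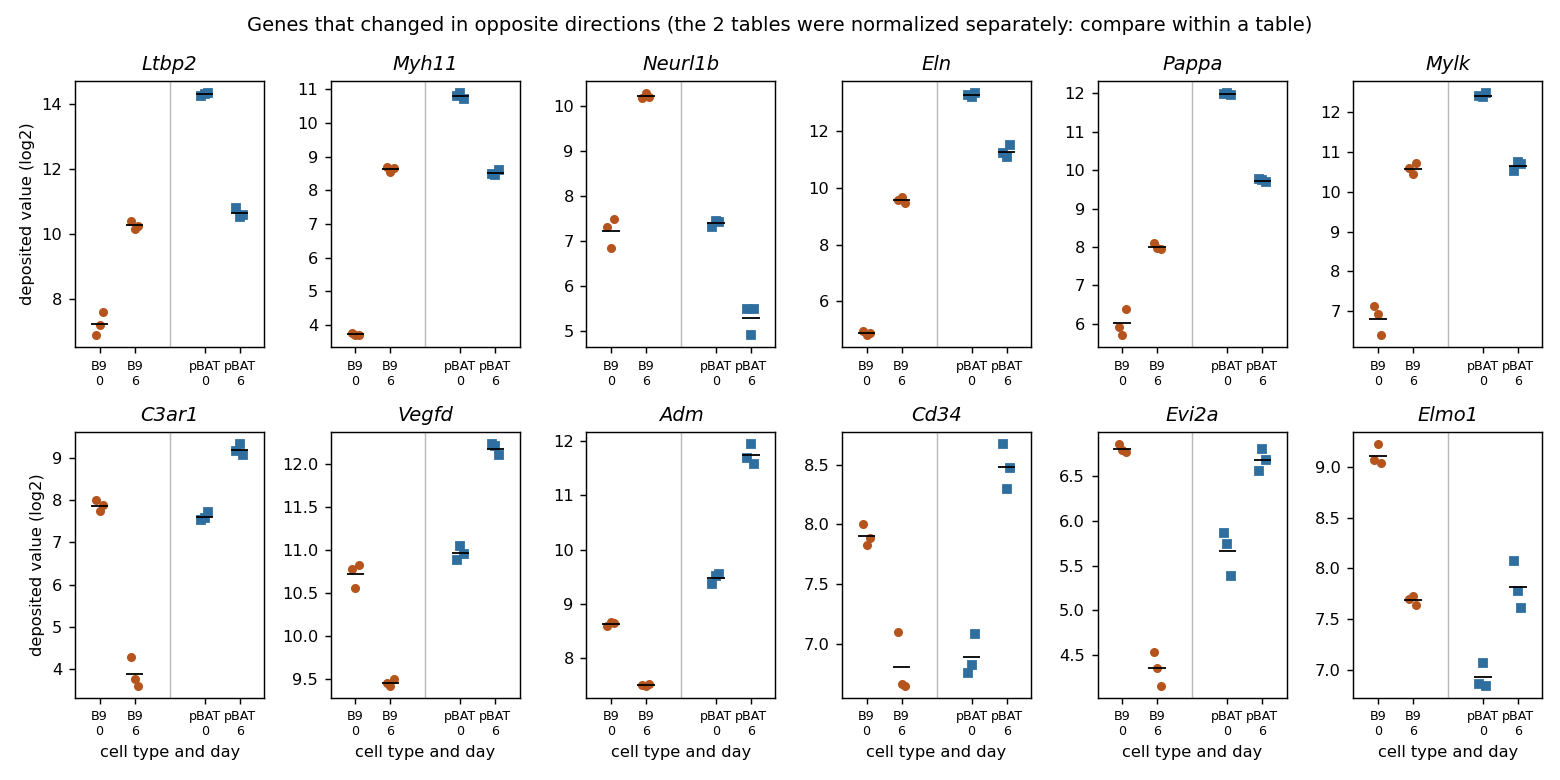
Deposited values (log2) of the 6 genes that rose in B9 and fell in pBAT (upper row) and the 6 that fell in B9 and rose in pBAT (lower row) with the largest smaller change; points are libraries, 3 per group, and lines group means. The 12 were picked for large changes in both cell types, so the gaps between day 0 and day 6 come with the choice. In C3ar1, B9 goes from between 7.74 and 8.0 to between 3.60 and 4.28.

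At the other end stood genes that fell in B9 or rose more in pBAT. C3ar1, the receptor of complement fragment C3a, read 8.0, 7.74 and 7.88 and then 4.28, 3.76 and 3.60 in B9, and 7.54, 7.57 and 7.73 and then 9.17, 9.34 and 9.08 in pBAT. Its difference was -5.58 ± 0.21 (limma adjusted p = 1.44e-16). Adm, the vasodilator adrenomedullin, fell by 1.12 and rose by 2.26, and Vegfd, a lymphatic growth factor, fell by 1.26 and rose by 1.21. Cd34, a surface protein of progenitor and endothelial cells, fell by 1.10 and rose by 1.59. Edn1, endothelin 1, fell by 3.18 in B9, and its change in pBAT was 0.25 (limma adjusted p = 0.28). Syk, a kinase of immune receptors, fell by 3.46 and rose by 0.51, and Elmo1, an adaptor of Rac activation, fell by 1.42 and rose by 0.89. Evi2a fell by 2.45 and rose by 1.01. Fgd3, an activator of Cdc42, fell in both, by 5.08 and 1.67.

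Apln, the peptide apelin, rose by 0.28 in B9 and 3.82 in pBAT, and Fam110c, a centrosomal protein, by 0.64 and 4.67. Their differences of -3.54 and -4.03 became 1.76 and 1.33 with day 2 as the baseline. The noncoding RNA Snhg11 rose by 0.42 and 4.37. Syt12, a synaptotagmin, rose by 3.43 in pBAT, and its change in B9 was 0.01 (limma adjusted p = 0.96).

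Interferon-induced genes, which sense and restrict viruses, rose in B9 by day 6. Of 24, 23 rose in B9, and 12 rose and 2 fell in pBAT, with medians of 1.14 and 0.44, and the difference was called above for 13 and below for 1. Gbp2, a guanylate-binding protein, read 9.04, 8.68 and 8.88 and then 11.38, 11.16 and 11.12 in B9, and 7.76, 7.58 and 7.54 and then 8.44, 8.03 and 8.35 in pBAT. Its difference was 1.71 ± 0.21 (limma adjusted p = 1.91e-07). Ddx58, which encodes the RNA sensor RIG-I, rose by 0.49 in B9 and fell by 0.70 in pBAT. The median change at day 2 was -2.56 in B9 and -0.80 in pBAT, and with day 2 as the baseline the difference was called above for 23 and below for 1 of the 24.

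The core of the interferon-stimulated response element, written as GAAA, any 2 bases and GAAA again and searched on both strands, was found in 12 of the 17 interferon genes with a promoter in the table (70.6%), in 3.86% of the genes tested and in 3.99% of all genes in the table. The promoters of Gbp2 (chr3:142620413-142620712, plus strand) and Ddx58 (chr4:40239776-40240075, minus strand) are shown, as the members with the smallest adjusted p that hold the motif. The same chromosome was left out of the choice. Capitals mark it or its reverse complement.
Gbp2: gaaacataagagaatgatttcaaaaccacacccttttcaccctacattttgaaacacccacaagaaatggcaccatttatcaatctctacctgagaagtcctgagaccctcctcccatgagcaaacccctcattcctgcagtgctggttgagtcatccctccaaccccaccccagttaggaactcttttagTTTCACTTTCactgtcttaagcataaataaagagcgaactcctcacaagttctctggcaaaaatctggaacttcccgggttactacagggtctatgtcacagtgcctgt
Ddx58: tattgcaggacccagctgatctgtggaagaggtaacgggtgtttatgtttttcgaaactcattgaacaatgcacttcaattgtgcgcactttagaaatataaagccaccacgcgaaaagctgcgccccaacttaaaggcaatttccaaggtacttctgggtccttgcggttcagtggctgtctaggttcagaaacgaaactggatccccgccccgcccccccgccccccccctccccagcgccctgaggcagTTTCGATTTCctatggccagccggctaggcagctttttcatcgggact

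Of 12 tested antigen presentation genes, 11 rose in B9, and 9 rose and 1 fell in pBAT. The difference was called above for 6 and below for 2, where 28.5% and 29.8% of all genes were called. The median change in B9 was -0.21 at day 2, -0.03 at day 4 and 2.10 at day 6. Cd74, the invariant chain of MHC class II, read 4.68, 3.97 and 4.48 and then 9.88, 9.84 and 9.76 in B9, and 4.55, 4.63 and 4.49 and then 4.39, 3.86 and 4.09 in pBAT. Its difference was 5.89 ± 0.26 (limma adjusted p = 7.16e-17). Psmb9 and Psmb8, subunits of the immunoproteasome, rose by 4.41 and 2.82 in B9. In pBAT Psmb9 rose by 1.56, and the change of Psmb8 was 0.32 (limma adjusted p = 0.16). Tap1, the peptide transporter, rose by 1.94 and 0.46. Ifi206, an interferon-inducible nuclear protein, rose by 5.98 in B9, and its change in pBAT was 0.13 (limma adjusted p = 0.49). It read 1.07 to 1.33 in the pBAT libraries of days 0 and 6, where the scale varies little, and passed the filter through B9 alone. Ifi206 also has close relatives in the genome, so reads may be split between them.

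Macrophage markers were summed as a share of each library. All 20 listed markers had a value in the pBAT table and 14 in the B9 table, where C1qa, C1qb, C1qc, Adgre1, Tyrobp and Clec4n are not listed. Of the 20, 12 passed the filter on low values, most of them through pBAT alone, since 3 reached a mean of 4 in B9. Counts of called differences over these 12 are therefore not given. The summed share of the markers in a library was 0.0273 to 0.0298% at day 0 and 0.0977 to 0.124% at day 6 in pBAT, and 0.00151 to 0.00172% and 0.00208 to 0.00262% in B9. Mrc1, the mannose receptor, had a mean of 8.69 ± 0.08 at day 0 and 11.79 ± 0.19 at day 6 in pBAT (SD, n = 3) and stayed between 0.20 and 0.26 in B9, at the low end of the scale. Csf1r, the receptor of the macrophage growth factor, rose by 2.27 in pBAT and fell by 1.37 in B9. Not every marker went this way, as the difference ran from -4.44 to 2.40 over the 12 tested. Of the 2 that reached a mean of 6 in both tables, 1 was called above and 1 below. F13a1, a coagulation factor subunit that macrophages make, rose by 6.78 in pBAT and 0.45 in B9. It read 2.33 to 3.12 in the B9 libraries of days 0 and 6 and passed the filter through pBAT alone. Its difference of -6.33 ± 0.29 (combined SE) was the lowest of all genes tested, and the filter shapes it. C3ar1 and Syk, described above, are also expressed by macrophages, and the part of such cells in these differences was not tested.

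Skeletal muscle and endothelial markers were present in pBAT at day 0 and lower at day 6. Not every list of other cells went this way. The T, B and neutrophil markers summed to 0.000329 to 0.000424% of a pBAT library at day 0 and 0.000553 to 0.000772% at day 6. In pBAT the skeletal muscle markers summed to 0.00715 to 0.00787% of a library at day 0 and to 0.000830 to 0.00122% at day 6, and in B9 to 0.00249 to 0.00282% and 0.00149 to 0.00162%. Of these markers, 1 reached a mean of 4 in B9 at day 0 and 2 at day 6, against 7 and 1 in pBAT. Acta1, skeletal muscle actin, fell by 3.18 in pBAT and rose by 0.57 in B9. The endothelial markers summed to 0.0198 to 0.0209% and then 0.00483 to 0.00547% in pBAT, and to 0.000663 to 0.000791% and then 0.000482 to 0.000598% in B9. Of these, 3 reached a mean of 4 in B9 on either day, against 7 and 6 in pBAT. Cdh5, the cadherin of endothelial junctions, fell by 1.32 in pBAT and read below 0 in every B9 library of days 0 and 6. With day 2 as the baseline the difference was no longer called for Acta1 (0.22) or Cdh5 (0.16). The part of these cells in the differences of matrix, contractile and vascular genes was not tested.

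Some named genes reached a mean of 6 in one table only, so the other table holds them at low values. Lrrc15, a surface protein of matrix-producing fibroblasts, fell by 4.94 in pBAT and read 1.59 to 1.81 in B9, and Gjb2, a gap junction protein, fell by 5.80 in pBAT, a difference that was not called against day 2 (0.12). Heyl, a target of Notch, fell by 4.55 in pBAT, and its change in B9 was 0.15 (limma adjusted p = 0.39). Agtr2, an angiotensin receptor, read 6.21, 6.60 and 6.29 and then 11.66, 11.39 and 11.56 in pBAT and -1.76 in each B9 library. Depp1 rose by 7.08 in pBAT and 1.43 in B9, and Sorl1, a sorting receptor, by 5.72 and 0.81. Mup14, a major urinary protein whose gene family shares long stretches of sequence, rose by 5.91 in pBAT and read -1.90 in each B9 library. Crocc2 rose by 3.48 in B9 and fell by 1.40 in pBAT, and Tmem171 fell by 4.78 in B9, with a change in pBAT of -0.06 (limma adjusted p = 0.76). With day 2 as the baseline the differences of Lrrc15, Agtr2 and Tmem171 changed sign, to -0.56, 2.84 and 0.64.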

How the data were processed

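RNA sequencing libraries of B9 and pBAT cells at days 0, 2, 4 and 6 were used, 24 in all and 3 per group. Per the submitters' processing notes, GRCm39 was the genome build, and kallisto and DESeq2 are listed as tools; versions are not given in the sources used here. The authors deposited 1 table of normalized values per cell type, taken as log2 values from their range, and normalized each table by itself. Read counts per library were not used here, so depth is unknown, and 0 columns were left out of the 2 tables.

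In R 4.3.3, limma 3.58.1 was fitted to each table with a mean for each of the 4 days and a mean-variance trend. The difference of the 2 changes was divided by the combined standard error, with Satterthwaite degrees of freedom, and p-values were adjusted by the Benjamini-Hochberg method over the 13324 genes tested. A call is an adjusted p under 0.05. Rises and falls are called in the same fits. The code was tested on simulated data. Labels do not say that replicates are separate cultures or animals, so p-values measure the spread between libraries, which may be technical.

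Gene symbols came from a GENCODE M21 table, by gene ID. Named genes are the heme genes, the genes with the largest differences in each direction, the largest opposite changes, genes high in one table only, and the members of each list with the smallest adjusted p; some of these are not reported here. The members and lists were chosen with earlier results of these data known. Figures were drawn with matplotlib 3.10.9. Alternatives covered the filter on low values, the normalization, the fit, the replicate block and each library left out; a day 2 baseline and a filter at 6 in both tables were chosen after seeing the data.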

Additional observations from a re-analysis of the deposited data

Results flagged for a closer look

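These results are listed because the differentiation change differed between the cell types by the test of the difference itself in limma. The day 6 change differed for 7772 genes. Of these, 469 rose in B9 and fell in pBAT, and 374 fell in B9 and rose in pBAT. Among genes that rose in B9 and fell in pBAT, the difference was 7.185 for Myh11, 6.677 for Ltbp2, 6.674 for Eln, 5.518 for Mylk, 5.106 for Neurl1b and 4.238 for Pappa. Among genes that fell in B9 and rose in pBAT it was -5.576 for C3ar1, -3.461 for Evi2a, -3.381 for Adm, -2.69 for Cd34, -2.468 for Vegfd and -2.315 for Elmo1. Groups of 3 libraries are too small for a test of single outlying libraries.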

How the results depend on the processing

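The number of genes with a called day 6 difference was 7772 of 13324 and lay between 6277 and 8288 over all alternatives. The alternatives differ in the number of genes tested. The lowest count is of 10731 genes with a mean of at least 6 in both tables, and the highest of 18058 without a filter. The number called was 7341 to 7591 with 1 library left out and 7366 with the replicate block. Library numbers shared by day 0 and day 6 did not pair the libraries: their deviations correlated at 0.0351 and 0.0178 in B9 and at -0.000503 and 0.0302 in pBAT. The day 6 difference of Alas1, called in no setting, was 0.067 with quantile normalization, 0.013 with the replicate block, 0.011 without pBAT day 0 replicate 3 and 0.042 without pBAT day 6 replicate 1, and ranged from -0.198 to 0.042 with 1 library left out. With day 2 as the baseline, the difference of 12 named genes changed sign: Cpox 1.03, Alad 0.060, Aspn -0.22, Fam110c 1.33, Apln 1.76, Lrrc15 -0.56, Agtr2 2.84, Tmem171 0.64, Pgam1 0.14, Tpi1 0.56, Cdkn2c 0.039 and Tfrc 0.53. The calls of 7 others were lost there, among them Ckb (0.45), Gjb2 (0.12) and Glrx5 (-0.14). The cause was not tested. Read depth is unknown, and low genes vary little on the deposited scale, which limits statements on genes near its lower end.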

Other observations

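Some genes are listed for 1 cell type only and entered no comparison; those named here were chosen after their values were seen. The pBAT table alone lists 802 genes, of which 56 reached a mean of 6 at day 0 or day 6, and the B9 table alone lists 2122, of which 1 did. Lhx8, a homeobox gene used as a brown adipocyte marker, had a pBAT mean of 7.99 at day 0 and 8.10 at day 6. Slc7a10, an amino acid transporter of adipocytes, went from 3.61 to 9.07 in pBAT. The 1 gene of the B9 table was Hmx2, a homeobox gene, at 6.24 and 5.65.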
